A study of Rattus norvegicus with 18 samples.

Results

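The genes described here are 10 components of major histocompatibility complex (MHC) class I antigen presentation, taken by symbol from a table of 19880 genes. They comprise the 3 inducible catalytic subunits of the immunoproteasome (Psmb8, Psmb9 and Psmb10), the peptide transporter and its loading partner (Tap1, Tap2 and Tapbp), the class I light chain B2m, the class I heavy chain genes RT1-CE5 and RT1-T24-3, and the transactivator Nlrc5. All 10 had enough counts to be tested, as did 14870 genes of the table. Class I molecules display peptides from inside the cell to cytotoxic T cells. The proteasome cuts proteins into peptides, the TAP transporter carries these into the endoplasmic reticulum, and tapasin helps load them onto a heavy chain paired with beta-2-microglobulin. Interferons raise the transcription of these genes in most cell types, through STAT and IRF factors and through Nlrc5, and parenchymal cells such as heart muscle normally keep them low.

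RNA came from neonatal rat ventricular cardiomyocytes, primary heart muscle cells of Sprague-Dawley rats at postnatal day 2. The 6 groups of 3 libraries were sORF6 and control6, sORF7 and control7, and sORF8 and control8. An sORF group was infected with adenovirus carrying that short open reading frame, and its control group with the control virus of the same experiment. All 18 libraries, controls included, were from cells given phenylephrine, an adrenergic agonist that causes hypertrophy, at 20 µM for 24 h. Each comparison is thus between 2 adenoviruses in phenylephrine-treated cells, and uninfected or phenylephrine-free cells were not analysed here. Nothing in the labels makes the 3 libraries of a group separate cultures, so the p-values reflect library-to-library spread that could be purely technical.

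Library totals were 15697177 to 17658137 estimated counts. Cardiomyocyte markers dominated every library, with 18095 to 29932 FPKM (a level per transcript length and per library total) summed over 9 genes, against 1495 to 1782 FPKM over 8 fibroblast genes, 1588 to 2249 FPKM over 6 smooth muscle and pericyte genes and 51.4 to 75.9 FPKM over 12 leukocyte genes. The median log2 distance of a library from the other libraries of its group was largest in control6 replicate 2 (0.115) and control7 replicate 1 (0.107), against 0.0673 to 0.0911 in the remaining libraries.

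Of the 10 genes, 7 lie on chromosome 20, which carries the rat MHC (RT1), 2 on chromosome 19 and 1 on chromosome 3. In the deposited Rnor_6.0 coordinates, Psmb9 (chr20:3973424-3978845, minus strand), Tap1 (chr20:3979302-3989669, plus), Psmb8 (chr20:3990809-3993829, plus) and Tap2 (chr20:3995544-4009587, plus) form a cluster of 36.2 kb in which 456 bases separate Psmb9 from Tap1. Tapbp (chr20:5466951-5476007, plus), RT1-T24-3 (chr20:3226010-3257254, plus) and RT1-CE5 (chr20:4638247-4943591, minus) lie elsewhere on that chromosome. Psmb10 is at chr19:37905808-37915898 (minus), Nlrc5 at chr19:10904203-11006202 (plus) and B2m at chr3:114081975-114093311 (plus). The Psmb10 interval overlaps 4 other genes, 3 of them on the same strand. The Tapbp interval lies within that of Rgl2, on the same strand. The RT1-CE5 interval holds 18 listed transcripts and overlaps 11 other genes. Among these are the class I genes RT1-CE2, RT1-CE3, RT1-CE4 and RT1-CE7, and the rest, such as Lta, Hspa1a and Ddx39b, are not class I genes. The RT1-T24-3 interval overlaps 3 genes, RT1-S3, RT1-T24-1 and RT1-T24-4. The division of reads among the near-identical class I genes is therefore uncertain.

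The stretches of 250 bases before the RefSeq start of the genes (GRCr8 assembly) are shown because interferon-responsive promoters are known for paired GAAA repeats, the element that IRF factors bind. Of the 10 genes, 9 had an entry, and 5 of these held a GAAA, any 2 bases and a GAAA on either strand, against 3.41% of 33469 rat promoters of the same length. Those 5 are printed 5′ to 3′ on the coding strand. Capitals mark this pair (a pair of TTTC where it lies on the other strand) and a fixed kappaB-type spelling, which reads GGGAC and then TTTCC.
Psmb10 (chr19:50743293-50743542, minus strand): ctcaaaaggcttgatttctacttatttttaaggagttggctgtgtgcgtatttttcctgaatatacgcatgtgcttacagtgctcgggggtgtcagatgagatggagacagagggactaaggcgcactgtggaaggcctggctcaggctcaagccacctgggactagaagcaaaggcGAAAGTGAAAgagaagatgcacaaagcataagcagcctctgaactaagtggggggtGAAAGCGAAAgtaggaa
Tap1 (chr20:4668544-4668793, minus strand): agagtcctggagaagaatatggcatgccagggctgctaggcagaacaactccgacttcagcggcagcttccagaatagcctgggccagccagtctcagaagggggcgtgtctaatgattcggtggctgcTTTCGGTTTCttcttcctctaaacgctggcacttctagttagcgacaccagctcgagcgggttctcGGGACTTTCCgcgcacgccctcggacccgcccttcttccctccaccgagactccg
Tap2 (chr20:4652297-4652546, minus strand): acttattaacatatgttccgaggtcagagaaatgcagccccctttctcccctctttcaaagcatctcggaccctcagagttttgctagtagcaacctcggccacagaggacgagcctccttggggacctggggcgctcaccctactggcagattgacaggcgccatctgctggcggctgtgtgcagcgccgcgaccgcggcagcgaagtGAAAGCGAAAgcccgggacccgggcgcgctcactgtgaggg
Tapbp (chr20:4967878-4968127, minus strand): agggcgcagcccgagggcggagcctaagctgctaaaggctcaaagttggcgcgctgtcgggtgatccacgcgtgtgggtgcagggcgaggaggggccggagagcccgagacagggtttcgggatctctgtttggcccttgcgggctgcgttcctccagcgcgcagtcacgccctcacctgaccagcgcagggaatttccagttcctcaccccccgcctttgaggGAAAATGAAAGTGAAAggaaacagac
B2m (chr3:129549080-129549329, plus strand): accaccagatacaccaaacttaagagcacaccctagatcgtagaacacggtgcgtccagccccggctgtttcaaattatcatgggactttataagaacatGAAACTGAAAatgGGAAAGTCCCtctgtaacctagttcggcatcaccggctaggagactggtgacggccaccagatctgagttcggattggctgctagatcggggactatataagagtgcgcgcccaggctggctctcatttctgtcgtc

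The GAAA pair began 121 bases before the start of Tap1 (on the opposite strand), 41 before Tap2 and 150 before B2m. Tapbp had overlapping matches at 26 and 20 bases, and Psmb10 had matches at 73 and 17 bases. The fixed kappaB-type spelling, searched on both strands, occurred before Tap1 and B2m, 2 of the 9 genes, and in 0.0956% of all promoters. Other kappaB-type spellings were neither searched nor marked. The Tapbp window, for example, holds GGGAA and then TTTCC, so these values do not count all kappaB-type sequences. The CRE-type element TGACGTCA (1.59% of promoters) and the ETS-type letters GGAAGT (19.2%) had no match in these windows. Shorter ETS-type letters were not searched. The GAS-type letters TTCNNNGAA (7.67%) were found before Psmb8, and the Y box CTGATTGG (3.19%), which contains the CCAAT box, before RT1-CE5. TGACG (18.2%) matched in 2 windows, CCAAT (34.0%) in 4 and GGGCGG (30.5%) in 5. A match is a description of these letters and not evidence of binding.

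**Figure D1:**
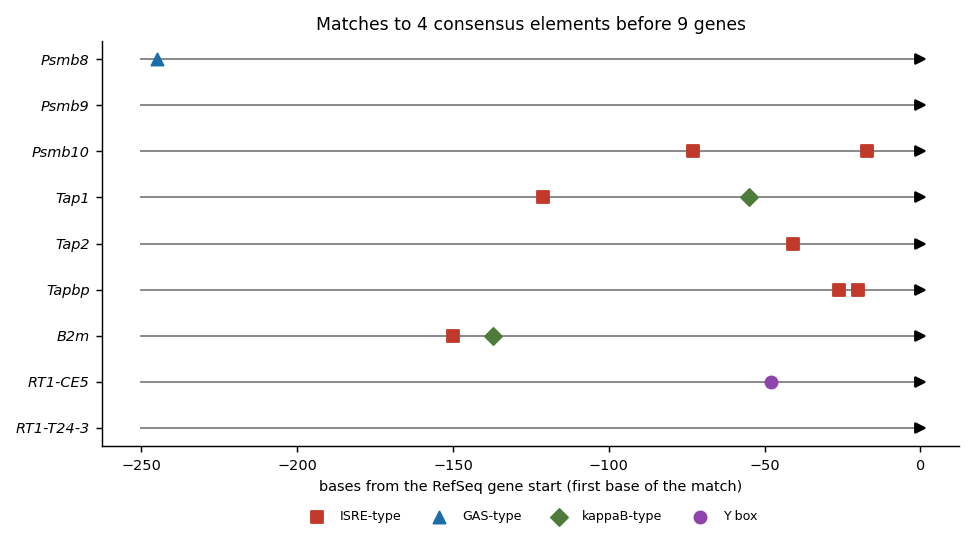
Matches to 4 elements, as spelled for the search, on either strand in the 250 bases before the RefSeq start of 9 genes. The x axis gives the distance of the first base of each match from the start, in bases, and arrowheads mark the starts. The paired GAAA element (ISRE-type) appears before 5 genes, with 2 matches each before Psmb10 and Tapbp.

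With sORF6, transcripts of all 10 genes were lower than with its control virus, by a median of 2.06-fold, where 2.88% of all genes tested were lower. With sORF7 all 10 were higher than with control7, by a median of 1.76-fold, where 4.12% of all genes were higher. With sORF8 none of the 10 passed the test against control8, where 3.75% of all genes did. Values are normalised CPM, the count of a gene relative to the library total after TMM scaling. Tests are edgeR's quasi-likelihood test with Benjamini-Hochberg adjustment over 14870 genes, called at an adjusted p under 0.05. Log2 fold changes are given ± their SE, and level means ± SD.

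**Figure D2:**
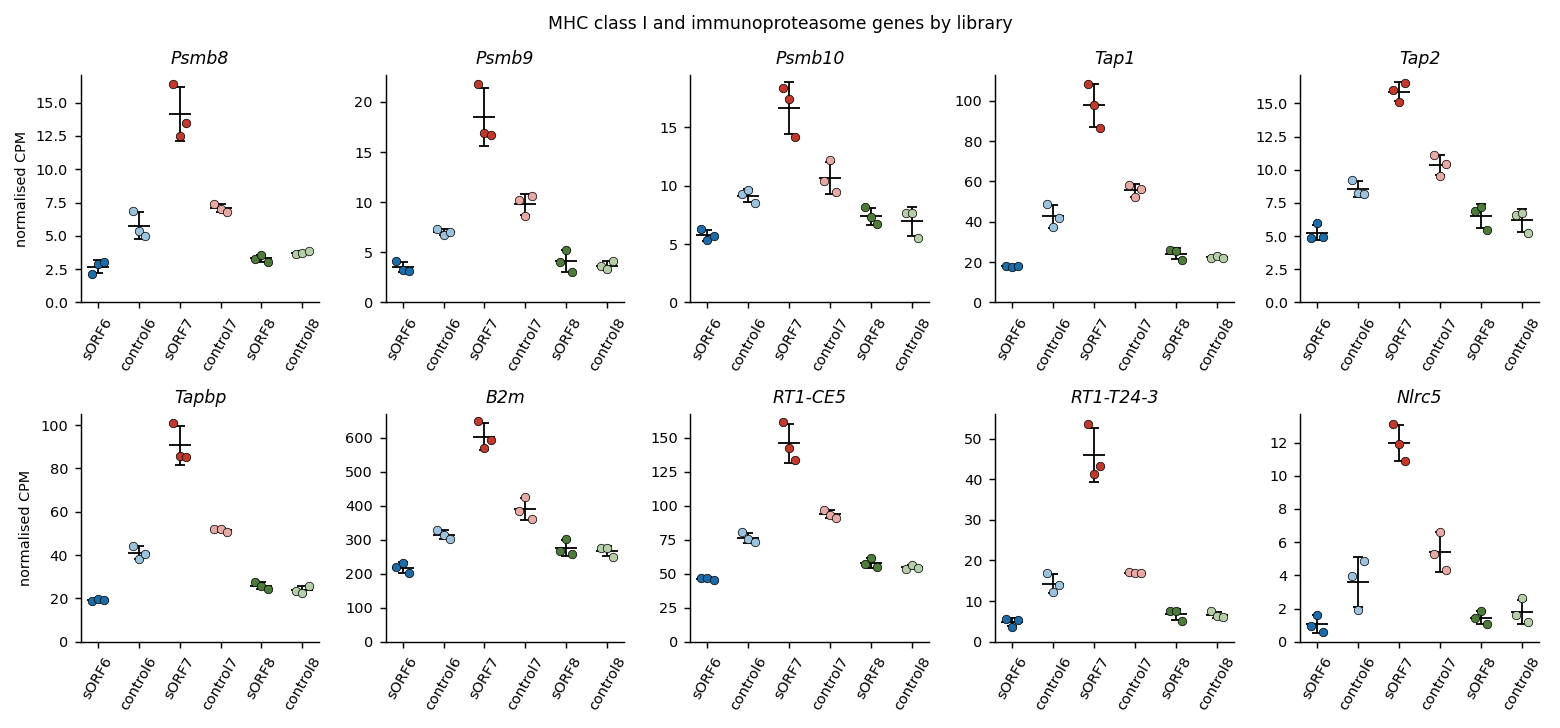
Normalised CPM (linear y axes from 0) of each of the 10 genes in the 3 libraries of each group; points are libraries, and bars give the mean and SD. For every gene the sORF7 libraries lie highest and the 3 sORF6 libraries lie below the 3 control6 libraries.

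The immunoproteasome genes averaged 5.73 (Psmb8), 8.71 (Psmb9) and 9.63 FPKM (Psmb10) over the 18 libraries, above 42.2, 51.8 and 54.1% of genes tested. Psmb8 (also Lmp7), whose product replaces the chymotrypsin-like subunit Psmb5, had 2.15, 2.86 and 3.06 CPM with sORF6, against 6.90, 5.39 and 5.01 CPM with control6. It had 16.4, 12.5 and 13.5 CPM with sORF7, against 7.42, 6.99 and 6.82 CPM with control7. The groups did not overlap in either experiment, and the log2 fold changes were -1.10 ± 0.16 (edgeR adjusted p = 0.000173) and 1.00 ± 0.14 (0.000132). With sORF8 it had 3.29, 3.59 and 3.07 CPM, all just below the 3.61, 3.72 and 3.83 CPM of control8, a difference that did not pass the test (log2 -0.17 ± 0.16, adjusted p = 0.679).

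Psmb9 (Lmp2), the replacement for Psmb6, had 4.13, 3.27 and 3.17 CPM with sORF6, against 7.30, 6.72 and 7.01 CPM with control6. Psmb9 had 21.8, 16.9 and 16.7 CPM with sORF7, against 10.2, 8.63 and 10.6 CPM with control7. Every sORF6 library was thus below and every sORF7 library above its controls, with log2 fold changes of -0.99 ± 0.17 (edgeR adjusted p = 0.00126) and 0.91 ± 0.15 (0.000608). Psmb10, the replacement for Psmb7, lies outside the MHC. It had 6.28, 5.37 and 5.66 CPM with sORF6, against 9.26, 9.62 and 8.54 CPM with control6. In the sORF7 libraries it had 18.4, 17.4 and 14.2 CPM, against 10.4, 12.2 and 9.51 CPM with control7. Its groups did not overlap either, and its log2 fold changes were -0.66 ± 0.14 (adjusted p = 0.0086) with sORF6 and 0.64 ± 0.13 (0.00405) with sORF7. With sORF8, Psmb9 averaged 4.13 ± 1.08 CPM against 3.68 ± 0.43 CPM with control8, and Psmb10 7.38 ± 0.739 CPM against 6.96 ± 1.24 CPM (SD, n = 3 each), with overlapping libraries for both.

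None of the constitutive subunits that these 3 replace passed the test in any of the 3 comparisons. Psmb5 averaged 68.5 ± 0.38 CPM with sORF6 against 74.8 ± 4.27 CPM with control6 (log2 -0.13 ± 0.06, edgeR adjusted p = 0.293), and these libraries did not overlap. With sORF7 it averaged 81.4 ± 6.03 CPM against 81.5 ± 4.44 CPM with control7 (SD, n = 3 each). The log2 fold changes of Psmb6 were -0.08 with sORF6, 0.03 with sORF7 and -0.09 with sORF8, and those of Psmb7 were -0.07, 0.08 and -0.10 in the same order of comparisons, and of these only Psmb6 with sORF8 had libraries that did not overlap. As geometric means of FPKM ratios, Psmb8 stood at 3.14% of Psmb5 with sORF6 against 6.03% with control6, and at 13.5% with sORF7 against 6.84% with control7. Psmb9 stood at 3.69% of Psmb6 with sORF6 against 6.82% with control6, and at 15.9% with sORF7 against 8.72% with control7. For Psmb10 and Psmb7 the percentages were 4.56 with sORF6 against 6.86 with control6, and 11.2 with sORF7 against 7.60 with control7. Each of these 6 ratios separated the sORF libraries from their controls without overlap. Exact two-sided permutation tests gave p = 0.1 for each, the smallest that 3 libraries against 3 allow, or 0.15 adjusted over 9 ratios, so this design cannot reach 0.05 for a single ratio. With sORF8 the ratios overlapped those of control8, with exact permutation p of 0.3 to 0.5.

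Summed over the 3 pairs, immunoproteasome transcripts made up 3.93, 3.45 and 3.69% of the catalytic subunit FPKM with sORF6, against 6.78, 5.71 and 6.02% with control6. They made up 13.5, 11.1 and 10.8% with sORF7, against 7.81, 6.99 and 6.77% with control7. With sORF8 the shares were 3.99, 4.38 and 3.46%, against 3.76, 3.64 and 3.35% with control8. The constitutive subunits remained the more abundant transcripts in every library.

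**Figure D3:**
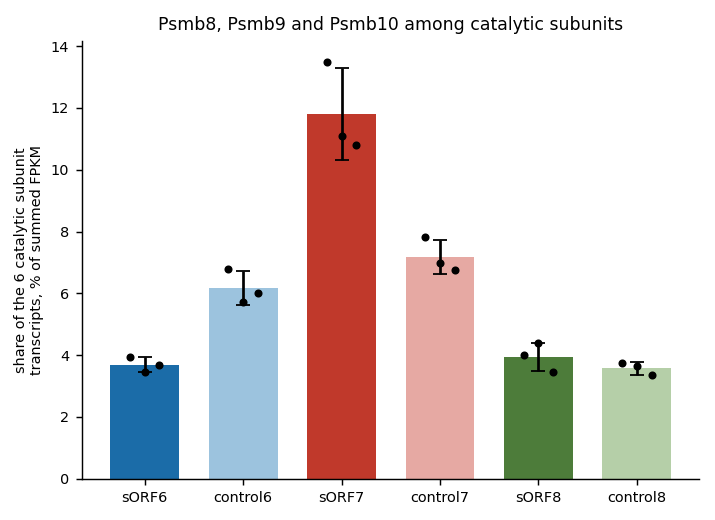
Psmb8, Psmb9 and Psmb10 as a percentage of the summed FPKM of the 6 catalytic subunit genes, by group (y axis from 0); bars are means, points are the 3 libraries and error bars the SD. The mean was 3.69% with sORF6 against 6.17% with control6, 11.8% with sORF7 against 7.19% with control7, and 3.94% with sORF8 against 3.59% with control8.

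Of the remaining proteasome genes, the 14 constitutive core subunits had 0 members that rose or fell with sORF6 or sORF7, and 1 that fell with sORF8 (Psma3, log2 -0.17 ± 0.04, edgeR adjusted p = 0.0352). Their median log2 fold change was -0.09 with sORF6, 0.03 with sORF7 and -0.08 with sORF8, where the median of all genes tested was 0.00 in each. Among 10 activators and assembly factors, 2 fell with sORF6 and 4 rose with sORF7, where 2.88% and 4.12% of all genes tested did. Psme1 and Psme2 encode the interferon-inducible PA28 cap of the proteasome. Psme2 averaged 43.0 CPM with sORF6 against 56.2 CPM with control6 (log2 -0.38 ± 0.07), and 86.2 CPM with sORF7 against 62.9 CPM with control7 (0.45 ± 0.07). Psme1 changed by -0.29 ± 0.06 with sORF6 and by 0.34 ± 0.06 with sORF7. Psme4, which encodes the PA200 activator, and Psmf1, which encodes the proteasome inhibitor PI31, rose with sORF7 by 0.32 ± 0.05 and 0.34 ± 0.07. With sORF6 these had values of -0.13 and -0.07 that did not pass the test.

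Tap1 and Tap2 encode the paired subunits of the peptide transporter. Tap1 had 18.2, 17.5 and 18.1 CPM with sORF6, against 48.9, 37.3 and 41.9 CPM with control6, and it fell by 1.25 ± 0.10 on the log2 scale (edgeR adjusted p = 1.73e-07). In sORF7 libraries Tap1 had 108.3, 97.9 and 86.7 CPM, against 58.4, 52.2 and 56.1 CPM with control7 (0.81 ± 0.09, adjusted p = 1.75e-05). The sORF6 libraries differed from each other by less than 1 CPM, and the lowest control6 library was above all of them. Tap2 had 4.89, 5.96 and 4.96 CPM with sORF6, against 9.26, 8.23 and 8.20 CPM with control6 (-0.70 ± 0.13, adjusted p = 0.00192). In sORF7 libraries Tap2 had 16.0, 15.1 and 16.5 CPM, against 11.1, 9.56 and 10.4 CPM with control7 (0.62 ± 0.11, adjusted p = 0.00197). With sORF8, Tap1 averaged 24.2 ± 2.94 CPM against 22.5 ± 0.633 CPM with control8, and Tap2 6.51 ± 0.919 CPM against 6.19 ± 0.856 CPM (SD, n = 3 each), and the groups overlapped for both.

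Tapbp encodes tapasin, which bridges TAP and the empty class I molecule. It had 18.6, 19.8 and 19.3 CPM with sORF6, against 44.3, 38.4 and 40.3 CPM with control6, and 101.1, 85.7 and 85.3 CPM with sORF7, against 51.9, 52.1 and 50.8 CPM with control7. The groups were far apart relative to their spread: the log2 fold changes were -1.09 ± 0.08 (edgeR adjusted p = 4.7e-08) and 0.81 ± 0.07 (1.76e-06). With sORF8 it had 27.6, 25.9 and 24.4 CPM, against 23.4, 22.5 and 25.8 CPM with control8, which overlapped (adjusted p = 0.488). Tapbpl, a gene related to tapasin whose product edits class I peptides, fell with sORF6 by 0.42 ± 0.12 (adjusted p = 0.0485) and rose with sORF7 by 0.65 ± 0.11 (0.000863). Erap1, an aminopeptidase that trims peptides in the endoplasmic reticulum, rose with sORF7 by 0.23 ± 0.07, at an adjusted p of 0.04997, just under the threshold. In all, of 10 assembly genes outside the set, 1 fell with sORF6, 2 rose with sORF7 and 1 rose with sORF8 (background 2.88%, 4.12% and 3.75% called). The last was the chaperone Hspa5 (log2 0.24 ± 0.03, adjusted p = 0.000115). Calr, which encodes the chaperone calreticulin of the loading complex, had 1235 CPM with sORF6 against 1227 CPM with control6, and 1232 CPM with sORF7 against 1234 CPM with control7.

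B2m, the light chain of every class I molecule, was the most abundant of the 10 per transcript length, at a mean of 189.1 FPKM over the 18 libraries, above 97.3% of genes tested. It had 220.5, 231.8 and 201.7 CPM with sORF6, against 327.6, 314.4 and 302.0 CPM with control6. The sORF7 libraries had 648.2, 569.9 and 592.8 CPM, against 384.8, 426.0 and 360.0 CPM with control7. Its log2 fold changes, -0.53 ± 0.07 (edgeR adjusted p = 7.85e-05) and 0.63 ± 0.07 (1.83e-05), were the smallest fall and, after Tap2, the smallest rise of the set. With sORF8 it averaged 276.3 ± 23.9 CPM against 266.7 ± 15.1 CPM with control8 (SD, n = 3 each).

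RT1-CE5, a class I heavy chain gene of the RT1-C/E region, had 47.0, 47.1 and 45.1 CPM with sORF6, against 80.5, 75.9 and 73.1 CPM with control6 (log2 -0.72 ± 0.06, edgeR adjusted p = 4.56e-07). With sORF7 it had 161.9, 142.5 and 133.7 CPM, against 96.9, 93.6 and 91.1 CPM with control7 (0.64 ± 0.06, adjusted p = 5.84e-06). RT1-T24-3 had 5.58, 3.68 and 5.43 CPM with sORF6, against 16.8, 12.2 and 14.0 CPM with control6. With sORF7 it had 53.6, 41.3 and 43.2 CPM, against 17.2, 16.9 and 16.8 CPM with control7. The separation for this gene was wide in both experiments, at -1.54 ± 0.16 (adjusted p = 4.38e-06) and 1.44 ± 0.13 (4.85e-06). With sORF8, RT1-T24-3 had 7.49, 7.49 and 5.22 CPM, against 7.53, 6.45 and 6.08 CPM with control8.

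Because reads can be divided differently among class I paralogs, the 27 heavy chain genes of the table were also summed, a choice made after the data were seen. The sum was 212.2, 213.4 and 195.3 CPM with sORF6, against 427.3, 373.1 and 374.4 CPM with control6 (log2 -0.92 ± 0.09, edgeR adjusted p = 1.56e-06). With sORF7 it was 985.7, 824.6 and 790.3 CPM, against 475.2, 495.1 and 448.2 CPM with control7 (0.87 ± 0.09, adjusted p = 1.05e-05). With sORF8 it was 285.8, 306.1 and 232.4 CPM, against 257.3, 273.8 and 246.8 CPM with control8, which overlapped (0.08 ± 0.09, adjusted p = 0.71). Of the 20 heavy chain genes that could be tested, 13 fell with sORF6, 14 rose with sORF7 and 0 were called with sORF8, and 13 both fell with sORF6 and rose with sORF7. Of all genes tested, 2.88% fell with sORF6, 4.12% rose with sORF7 and 3.75% were called with sORF8. Several of the heavy chain genes overlap in position and may share reads, so they are not 20 separate observations. RT1-CE5 and RT1-A2, which belongs to the classical class I region RT1-A, had the highest counts, with means over 18 libraries of 79.3 and 79.2 CPM. RT1-A2 changed by -0.93 ± 0.13 with sORF6 and 0.97 ± 0.12 with sORF7. RT1-S3, RT1-CE3, RT1-CE7 and RT1-CE4 changed by -1.17, -1.08, -1.49 and -1.28 with sORF6 and by 0.92, 0.96, 0.96 and 1.09 with sORF7.

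**Figure D4:**
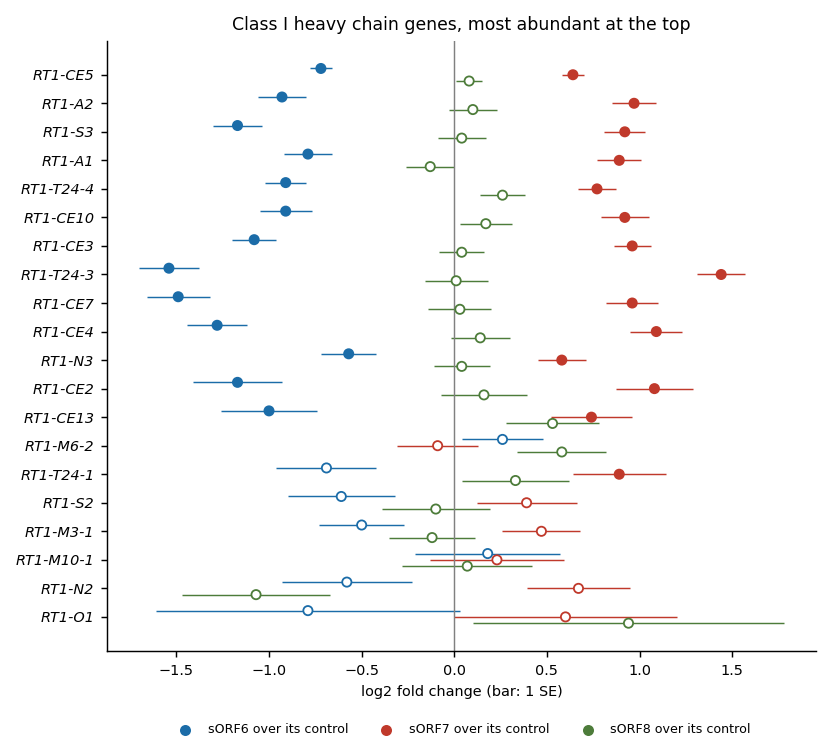
Log2 fold change of the 20 tested class I heavy chain genes with each sORF over its own control, ordered by mean CPM; bars give 1 SE, and filled points passed an adjusted p under 0.05. Filled points lie left of 0 for sORF6 (13 genes) and right of 0 for sORF7 (14 genes), and all sORF8 points are open.

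Class II genes, which present peptides taken up from outside the cell and mark professional antigen-presenting cells, were low. Of 12 listed genes 11 were in the table, and 4 could be tested, of which 0 rose or fell in any of the 3 comparisons. The chains RT1-Ba, RT1-Bb, RT1-Da and RT1-Db1 reached at most 6, 5, 4 and 5 counts in any library, while RT1-DMa and RT1-DMb, whose products edit class II peptides, reached 59 and 62 counts and were above 0 in every library. Cd74, the invariant chain, averaged 1.12 CPM with sORF6 against 1.4 CPM with control6, and 1.52 CPM with sORF7 against 1.35 CPM with control7.

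Nlrc5, the transactivator of class I genes, was the least abundant of the 10, at a mean of 0.436 FPKM, above 9.49% of genes tested. Its entry also carries the symbol Cpne2, so the counts may not be of Nlrc5 alone. Nlrc5 had 0.931, 1.64 and 0.577 CPM (16, 28 and 10 counts) with sORF6, against 3.97, 1.91 and 4.84 CPM with control6. With sORF7 it had 13.1, 11.9 and 10.9 CPM, against 5.28, 6.64 and 4.30 CPM with control7. Its fitted changes were wide in error, at -1.77 ± 0.37 (edgeR adjusted p = 0.00684) and 1.14 ± 0.29 (0.0184). With sORF8 it had 1.46, 1.83 and 1.04 CPM, against 1.62, 2.61 and 1.19 CPM with control8 (-0.32 ± 0.38, adjusted p = 0.744). The sORF6 call was lost without sORF6 replicate 3 (-1.47, adjusted p = 0.0552), in a fit of the 2 groups alone (0.0734), and with limma on log2(FPKM + 1), where the change was -0.30 with the filter on low counts (0.057) and without it (0.0607). The sORF7 call was lost without sORF7 replicate 1 (0.0771), sORF7 replicate 2 (0.0501), control7 replicate 1 (0.0595) or control7 replicate 3 (0.0786). Control6 replicate 2, with 1.91 CPM, was closer to the highest sORF6 library than to the other controls.

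Counted over the set, 10 of 10 genes fell with sORF6, where 2.88% of all genes tested fell, and 10 of 10 rose with sORF7, where 4.12% rose. Log2 fold changes were -1.77 to -0.53 with sORF6 (median -1.04) and 0.62 to 1.44 with sORF7 (median 0.81), against a median of 0.00 over all genes. All 10 sORF6 groups lay wholly below control6, as did 10.6% of genes tested, and all 10 sORF7 groups lay wholly above control7, as did 11.7%. With sORF8, 0 of 10 genes were called by edgeR, where 3.75% of all genes were. The counts at an unadjusted p under 0.05, by DESeq2, by limma and in the authors' deposited table were also 0. The sORF8 log2 fold changes were -0.32 to 0.17. Their 95% intervals ran from -0.10 to 0.21 for B2m, -0.05 to 0.29 for Tapbp, -0.12 to 0.34 for Tap1 and -0.06 to 0.22 for RT1-CE5, and more widely from -1.15 to 0.51 for Nlrc5. Without control6 replicate 2 and control7 replicate 1, 10 genes were called with sORF6, 10 with sORF7 and 0 with sORF8. The authors' deposited table, at a q-value under 0.05, lists 10 of the 10 as lower with sORF6 and 10 as higher with sORF7.

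**Figure D5:**
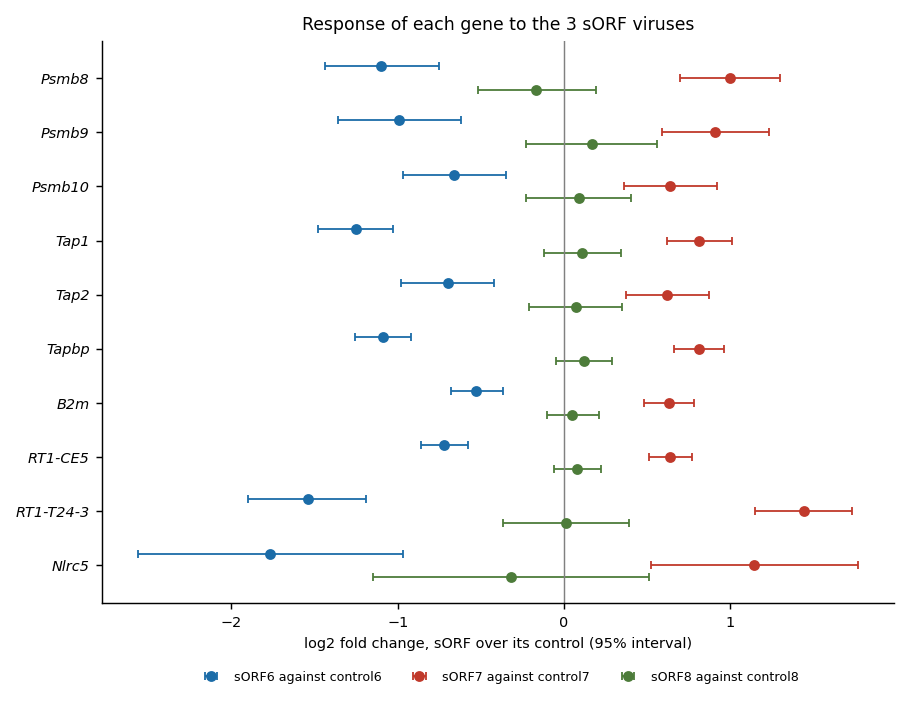
Log2 fold change of each of the 10 genes with each sORF over its own control, with 95% intervals from the edgeR fit. Intervals with sORF6 lie left of 0 and those with sORF7 right of 0 for all 10 genes, and those with sORF8 include 0.

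The responses to the 3 sORFs were set against each other as differences between log2 fold changes in the same fit, each sORF measured against its own control. The sORF6 response was below the sORF7 response for 10 of 10 genes (6.27% of all genes tested were called in that direction). The difference ran from -1.16 ± 0.10 for B2m to -2.98 ± 0.21 for RT1-T24-3 (edgeR adjusted p = 1.64e-07 and 1.71e-08). The sORF6 response was below the sORF8 response for 9 of 10 (background 2.82%), with -1.36 ± 0.15 for Tap1 (adjusted p = 9.6e-06) and -1.21 ± 0.11 for Tapbp (2.15e-06), and Nlrc5 outside the threshold at -1.44 ± 0.53 (0.178). Without control6 replicate 2, Nlrc5 passed (adjusted p = 0.044). The sORF7 response was above the sORF8 response for 6 of 10 (background 3.80%), namely Psmb8, Tap1, Tapbp, B2m, RT1-CE5 and RT1-T24-3, by 0.56 ± 0.09 for RT1-CE5 to 1.43 ± 0.22 for RT1-T24-3. Psmb9, Psmb10, Tap2 and Nlrc5 had differences of 0.74, 0.55, 0.54 and 1.47 that did not pass (adjusted p = 0.06, 0.0901, 0.0619 and 0.0699). Psmb9 passed without sORF8 replicate 2 (0.0182), Psmb10 without sORF7 replicate 3 or control8 replicate 3 (0.0285 to 0.0475), and Tap2 without control8 replicate 3 (0.0276).

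Of the 9 calls between sORF6 and sORF8, 3 depended on single libraries, and a fit of the 12 libraries concerned alone called 6. Psmb8 (-0.93 ± 0.23, edgeR adjusted p = 0.0231) lost its call without sORF6 replicate 1, control6 replicate 1, sORF8 replicate 1 or 2, or control8 replicate 1 or 2 (adjusted p = 0.0503 to 0.0718). Psmb10 (-0.75 ± 0.20, adjusted p = 0.0441) lost it without sORF6 replicate 1, 2 or 3, control6 replicate 1 or 2, sORF8 replicate 1 or 2, or control8 replicate 3 (0.0521 to 0.125). Tap2 (-0.77 ± 0.18, adjusted p = 0.0177) lost it without sORF6 replicate 1 or 3, control6 replicate 1, or sORF8 replicate 1 or 2 (0.0534 to 0.0588). The direction was the same in every one of these fits.

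Averaged over the 18 libraries and per transcript length, B2m was followed by RT1-CE5 (49.9 FPKM), Tapbp (27.1 FPKM), Tap1 (16.2 FPKM) and RT1-T24-3 (9.65 FPKM, level with Psmb10), and Tap2 (3.61 FPKM) was above Nlrc5 alone. Across the 6 groups the order of mean CPM was the same for 8 of the 10 genes: sORF7 highest, then control7, control6, sORF8, control8, and sORF6 lowest. For Psmb8 and Nlrc5, control8 was above sORF8. The share of all genes with the order of the 8 was not computed. The highest group mean exceeded the lowest by 2.77-fold for B2m to 11.4-fold for Nlrc5, with 5.45-fold for Tap1 and 9.40-fold for RT1-T24-3. Neighbours in this order that overlapped were sORF8 and control8 for 9 genes, control7 and control6 for Psmb8, Psmb10, RT1-T24-3 and Nlrc5, and control8 and sORF6 for Psmb9, Psmb10 and Tap2. Also among neighbours, control6 overlapped sORF8 for B2m and control8 for Nlrc5, and sORF8 overlapped sORF6 for Nlrc5. Groups further apart in the order could overlap too, such as sORF8 and sORF6 for Psmb9, Tap2 and RT1-T24-3. The sORF7 libraries overlapped no other group for any of the 10 genes. Against control7 alone, 11.7% of all genes tested lay wholly above, and the share against all groups was not computed.

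The 3 control groups themselves differed. A joint F test in the edgeR fit called 10 of the 10 genes, where it called 38.4% of all genes tested. Tap1 averaged 42.7 ± 5.86 CPM in control6, 55.6 ± 3.12 CPM in control7 and 22.5 ± 0.633 CPM in control8 (SD, n = 3 each, adjusted p = 2.03e-08). Tapbp averaged 41.0 ± 3.06, 51.6 ± 0.693 and 23.9 ± 1.74 CPM in control6, control7 and control8 (adjusted p = 4.27e-09). Control8 was the lowest control group for every one of the 10 genes, and the share of all genes for which it was lowest was not computed. Summed cardiomyocyte marker FPKM was also lower in control8 (18095 to 18300) than in control6 (26143 to 29932) and control7 (26556 to 28909), and the experiment and its control virus cannot be told apart in this design. Levels set across experiments therefore carry this difference. The differences between responses subtract it only as a constant log2 shift, and whether a response depends on its starting level was not tested.

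In bulk RNA, fewer cells of a type and less RNA per cell cannot be told apart. The 12 leukocyte markers summed to 61.3 to 66.9 FPKM with sORF6 against 65.2 to 74.9 FPKM with control6, to 51.4 to 57.0 FPKM with sORF7 against 52.4 to 59.9 FPKM with control7, and to 61.6 to 75.9 FPKM with sORF8 against 61.5 to 65.2 FPKM with control8. Of 9 that could be tested, 3 fell with sORF6, namely the macrophage and dendritic cell markers Adgre1 (log2 -0.61 ± 0.10), Itgax (-1.49 ± 0.27) and Itgam (-0.83 ± 0.17), and 0 rose. Of all genes tested, 2.88% fell with sORF6. Csf1r, another macrophage marker, had 14.8 CPM with sORF6 against 12.1 CPM with control6 (0.29 ± 0.13), which did not pass. With sORF7, 2 fell, among them Csf1r (-0.49 ± 0.14), and 0 rose, where 544 of 14870 genes tested fell. Itgax and Itgam had values of 0.24 and 0.23 with sORF7 that did not pass. Flt3, a marker of dendritic cells, was at 0 in 10 of 18 libraries. Fibroblast markers summed to 1685 to 1782 FPKM with sORF6 against 1539 to 1676 FPKM with control6, and to 1495 to 1574 FPKM with sORF7 against 1543 to 1697 FPKM with control7. Smooth muscle and pericyte markers summed to 1794 to 1895 FPKM with sORF6 against 1929 to 2048 FPKM with control6, and to 2157 to 2249 FPKM with sORF7 against 1942 to 2168 FPKM with control7. The sORF6 and control6 sums did not overlap for either list. With sORF8, smooth muscle and pericyte markers (1689 to 1813 FPKM) lay above those of control8 (1588 to 1649 FPKM). Cardiomyocyte markers summed to 24892 to 25323 FPKM with sORF7 against 26556 to 28909 FPKM with control7, without overlap. They summed to 20994 to 21148 FPKM with sORF8 against 18095 to 18300 FPKM with control8, also without overlap. With sORF6 (28204 to 28919 FPKM) they overlapped control6 (26143 to 29932 FPKM). The part of these cell types in the class I results was not tested.

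Among 23 receptors, kinases and transcription factors upstream of these genes, 6 fell with sORF6, 5 rose with sORF7 and 1 rose with sORF8 (background 2.88%, 4.12% and 3.75% called). The smallest p was that of Irf7, a transcription factor of type I interferon signalling. Irf7 averaged 8.23 CPM with sORF6 against 75.1 CPM with control6 (log2 -3.19 ± 0.22), and 259.5 CPM with sORF7 against 112.9 CPM with control7 (1.2 ± 0.17). With sORF8 it averaged 25.0 CPM against 23.1 CPM with control8, which did not pass the test (0.11 ± 0.21).

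The genes outside the set whose level followed its mean most closely over the 18 libraries were Lgals9, Cxcl10, Ly6e, RT1-S3 and Parp12, with Pearson r of 0.996, 0.995, 0.992, 0.992 and 0.987 between their log2 CPM and the mean standardised log2 CPM of the 10 genes. These values are a description over libraries that fall into 6 groups and share their depth, and they carry no test. RT1-S3 overlaps RT1-T24-3 of the set in position and may share reads with it. Lgals9, which encodes galectin-9, changed by -1.04 with sORF6 and 0.96 with sORF7. Cxcl10, an interferon-induced chemokine, changed by -1.89 and 1.75, and Ly6e, an interferon-induced surface protein, by -0.90 and 0.96, with sORF6 and sORF7 in turn. With sORF8 the log2 fold changes of the 5 genes were -0.17 to 0.19, and none passed the test.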

How the data were processed

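RNA of 18 libraries of neonatal rat ventricular cardiomyocytes was analysed from 1 table of 19880 genes. Its expected counts per gene and library and its FPKM values were made by the authors, and the submitters' processing notes name HISAT2 2.0.4, RSEM 1.2.12 and the build Rnor_6.0. Strand use in counting is not stated. The authors' deposited log2 fold changes and q-values (a p-value adjusted by them) were used only where named. These q-values are labelled degseq, whereas the notes name DESeq2 1.4.5, so the program that gave them is uncertain. Because RSEM divides reads among similar transcripts, class I heavy chain genes were also summed.

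Expected counts were rounded and tested with edgeR 4.0.16 (R 4.3.3): filterByExpr, TMM, and 1 mean per group over all 18 libraries, with 12 residual degrees of freedom. Alternatives were DESeq2 1.42.0, limma 3.58.1 on log2(FPKM + 1), other scalings, no filter, a length correction, a replicate term, fits of the compared groups alone, and each library left out. The fits were tested on simulated counts. Subunit ratios are log2 ratios of FPKM + 0.1. Depth was 15697177 to 17658137 counts.

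The 10 genes and all lists were chosen with earlier results of these data known. Named genes are the 10, the 3 constitutive counterparts, up to 4 genes per list with the smallest p over the 3 comparisons, and the 5 genes most like the set. RT1-A2, the 4 class II chains and Flt3 fall outside this rule and were named after their levels were seen. Promoters are RefSeq's.
Some genes that meet the naming rule are not reported here.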

Additional observations from a re-analysis of the deposited data

Results flagged for a closer look

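Responses to the 3 viruses differed by a direct test of the difference (edgeR's quasi-likelihood test, adjusted over all genes), as log2 fold change of one sORF minus that of another. Between sORF6 and sORF7 all 10 genes were flagged by that test: Psmb8 (-2.09), Psmb9 (-1.90), Psmb10 (-1.30), Tap1 (-2.06), Tap2 (-1.32), Tapbp (-1.90), B2m (-1.16), RT1-CE5 (-1.36), RT1-T24-3 (-2.98) and Nlrc5 (-2.91). Adjusted p was 0.000287 or less, and in each case every sORF6 library lay below and every sORF7 library above its own controls.

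Between sORF6 and sORF8 the genes were Psmb8 (-0.93), Psmb9 (-1.16), Psmb10 (-0.75), Tap1 (-1.36), Tap2 (-0.77), Tapbp (-1.21), B2m (-0.58), RT1-CE5 (-0.80) and RT1-T24-3 (-1.55). Those of Psmb8, Psmb10 and Tap2 missed the threshold in some fits with 1 library left out. Between sORF7 and sORF8 they were Psmb8 (1.16), Tap1 (0.70), Tapbp (0.69), B2m (0.58), RT1-CE5 (0.56) and RT1-T24-3 (1.43).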

How the results depend on the processing

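Over the alternatives run, 540 of 559 values of single genes in the 3 comparisons kept their direction and side of the threshold. Of the other 19, 8 were lost calls of Nlrc5 and 11 were sORF8 values, none of them called, that changed sign. With 1 library left out the sORF8 values ran from -0.04 to 0.34 for Psmb9, -0.06 to 0.16 for Psmb10, -0.04 to 0.18 for Tap2, -0.02 to 0.09 for B2m, -0.07 to 0.16 for RT1-T24-3 and -0.55 to 0.04 for Nlrc5, and RT1-T24-3 was at -0.00 by limma on log2(FPKM + 0.1). Of 744 values in the differences between responses, 696 did. No called value changed sign. Genes called over the whole table numbered 572 with sORF6, 1156 with sORF7 and 558 with sORF8. Fits of the compared groups alone gave 335, 689 and 865, and leaving out 1 library gave 368 to 527, 681 to 954 and 264 to 382. The count moved by over 1.5 times without sORF6 replicate 1 (368) or 3 (372), without sORF7 replicate 1 (681), and without any sORF8 or control8 library except sORF8 replicate 3 (264 to 361). With sORF8 the count was 899 with a length correction and 988 without control6 replicate 2 and control7 replicate 1. Of the 10 genes, 9 or 10 were called with sORF6 and with sORF7 and 0 with sORF8 under every alternative that tested all 10. In those runs the sORF6 response differed from that of sORF7 for 10 genes and from that of sORF8 for 6 to 9. The sORF7 response differed from that of sORF8 for 6 to 9. With class I heavy chain genes summed, 8 of the 10 were left to test. Of these, 8 were called with sORF6, 8 with sORF7 and 0 with sORF8. Between responses, 8 differed for sORF6 and sORF7, 7 for sORF6 and sORF8, and 4 for sORF7 and sORF8. Of the 1156 genes, 612 were higher and 544 lower with sORF7, against 740 and 324 by limma on log2(FPKM + 1).

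Replicate numbers gave no clear pairing of libraries: same-numbered deviations correlated at -0.0225 to 0.178 and different-numbered ones at -0.148 to 0.0913. Most, but not all, sORF libraries correlated best with the control of their own number, so a weak pairing is possible. With a replicate block, 522, 1022 and 459 genes were called, and 10, 10 and 0 of the 10 genes; between sORF6 and sORF8 the block called 8, with Psmb8 lost (adjusted p = 0.0769), and between sORF7 and sORF8 7, with Tap2 gained (0.0499); a block could not be fitted for the control groups, where replicate number is nested in the experiment. Precision is limited by 3 libraries per group and by low counts, above all for Nlrc5 and the rarer class I genes. The cause of the changes in these counts was not tested.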
